A study of Drosophila melanogaster with 3 samples.

Results

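The circadian clock of the fly rests on a small set of transcription factors and their inhibitors, and 8 genes of that loop were examined here for binding of FoxP: vri, Pdp1, per, tim, Clk, cyc, cwo and cry. They were taken as a list of clock genes by name, out of 13968 protein-coding genes on the chromosome arms. The list was chosen with earlier results of these data known. Chromatin immunoprecipitation with sequencing was carried out on whole prepupae of Drosophila melanogaster, males and females together. The animals came from 1 transgenic line, fd85E-GFP, that stably expresses FoxP (also named fd85E), a forkhead transcription factor, with GFP fused to its C-terminal end. An antibody against GFP was used for precipitation. There were 3 biological replicates and no other group. The promoter that drives the fusion is not stated in the labels, and neither is the time of day at which the animals were collected. As whole animals were used, binding in the few clock neurons and binding in other tissues cannot be told apart.

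The deposited data are lists of regions in dm6 coordinates. Each region has a summit and a signal value, a score from the authors with no stated scale, and regions were ranked by it from 1 downwards. Replicates 1, 2 and 3 had lists of 30000, 24326 and 22698 regions, and the list from the pooled reads held 30000. The thresholded list is the part of the pooled list that the authors kept after an irreproducible discovery rate (IDR) step. It held 2395 regions on the chromosome arms and 20 elsewhere, the lowest with a signal value of 134. As many best-ranked regions of a replicate as this list holds are called the top regions of that replicate. A summit was assigned to a gene when it lay in the gene or up to 5 kb upstream, which is called the window of the gene. Pooled signal values have no replicate error, and read depth is unknown, so replicates are compared by their ranks. With 1 group and no lists from control animals, all values are descriptions without a test.

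In the loop, the proteins of Clk and cyc form a dimer that binds E-box sequences and activates per, tim, vri, Pdp1 and cwo. The proteins of per and tim then enter the nucleus and inhibit the dimer, which closes the main feedback loop. A second loop acts on Clk itself: vri encodes a basic leucine zipper (bZIP) repressor and Pdp1 a bZIP activator, and both recognise the same type of sequence at Clk. The product of cwo competes for E-boxes, and that of cry is a blue-light receptor that leads to the loss of the tim product.

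Among the 8 genes, thresholded summits were found at the bZIP pair of the second loop and not at the other 6. The gene vri had 6 and Pdp1 had 1, which lies in an intron of a neighbouring gene, CG32365, whose start is closer. This is 2 of 8 clock genes, against 19.0% of all protein-coding genes by the same rule. The window of a long gene has more room for a summit, and vri and Pdp1 are the longest of the 8. Windows of 20 kb or more held a thresholded summit at both clock genes of that length, and at 42.6% of all genes of that length. For windows of 10 to 20 kb the counts were 0 of 4 clock genes (per, tim, Clk and cwo) and 29.0% of all genes. For windows under 10 kb they were 0 of 2 (cyc and cry) and 13.9%. These length classes were chosen after the values had been seen.

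Sequences around 5 of the 7 thresholded summits are shown because these are the regions the result rests on: the best-ranked pair at vri, those nearest a vri transcript start, and the only one at Pdp1. Each is read from the release 6 genome, plus strand, and runs from 100 bp before to 100 bp after the summit. Capitals mark matches, on either strand, to the forkhead forms ATAAACA and GTAAACA or to the general E-box CANNTG.
vri, chr2L:5293278-5293478: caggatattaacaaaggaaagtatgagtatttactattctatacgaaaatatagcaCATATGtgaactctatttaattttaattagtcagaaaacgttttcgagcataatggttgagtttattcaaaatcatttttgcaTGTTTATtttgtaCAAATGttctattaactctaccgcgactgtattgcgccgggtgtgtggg
vri, chr2L:5292674-5292874: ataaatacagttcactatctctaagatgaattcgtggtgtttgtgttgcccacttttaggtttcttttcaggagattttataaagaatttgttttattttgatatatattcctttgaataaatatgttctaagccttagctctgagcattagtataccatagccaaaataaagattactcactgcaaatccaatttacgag
vri, chr2L:5299274-5299474: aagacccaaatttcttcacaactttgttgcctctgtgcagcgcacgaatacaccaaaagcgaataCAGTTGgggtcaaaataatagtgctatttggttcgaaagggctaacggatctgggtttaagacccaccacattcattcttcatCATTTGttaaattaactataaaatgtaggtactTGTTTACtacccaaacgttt
vri, chr2L:5305544-5305744: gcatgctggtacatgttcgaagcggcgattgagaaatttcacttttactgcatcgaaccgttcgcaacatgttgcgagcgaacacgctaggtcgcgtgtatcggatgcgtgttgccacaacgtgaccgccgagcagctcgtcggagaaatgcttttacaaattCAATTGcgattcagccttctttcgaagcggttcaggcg
Pdp1, chr3L:7870140-7870340: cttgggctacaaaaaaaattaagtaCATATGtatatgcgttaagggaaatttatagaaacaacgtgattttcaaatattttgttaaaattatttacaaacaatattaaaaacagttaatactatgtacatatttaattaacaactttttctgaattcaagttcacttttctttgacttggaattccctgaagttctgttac

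The gene vri (2L, 5288944 to 5311223, plus strand) has 3 transcript starts, and its 6 thresholded summits were spread over 17961 bp. The highest lay in an intron 4434 bp downstream of the outermost start, with a signal value of 343 and rank 326 in the pooled list. Its ranks were 268, 460 and 248 in replicates 1, 2 and 3, and the replicate summits were 10, 32 and 5 bp from the pooled one. It is the first sequence shown above. A second intronic summit, 604 bp closer to that start, had a signal value of 308 and pooled rank 419. It ranked 351 and 307 in replicates 1 and 2 and 1058 in replicate 3. These neighbours were the best-ranked regions of the gene in the pooled list, and both stood among the top regions of every replicate.

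The other 4 thresholded summits of vri had signal values of 154 to 181. One lay 6 bp upstream of the most downstream start (signal value 181, pooled rank 1401), with ranks 1036, 2015 and 3194 in replicates 1, 2 and 3. Another was 273 bp upstream of the middle start, with pooled rank 1897 and replicate ranks 2046, 1876 and 2051. The replicate summits were 24, 124 and 124 bp from it. The same regions of replicates 2 and 3 also matched a pooled summit below the threshold, 74 bp upstream of that start (signal value 105, rank 3787). Their summits were nearer to that one, at 75 bp, and replicate 1 had a separate region there, ranked 8400. An intronic one 2175 bp upstream of the same start ranked 1288, 2224 and 1911. The last was outside the gene, 1261 bp upstream of the outermost start, and ranked 1398 and 1889 in replicates 2 and 3 but 4988 in replicate 1. Of these 4, those at the most downstream start and outside the gene each overlapped a top region of only 2 replicates. At the outermost start itself the nearest pooled summit, 14 bp inside the gene, had a signal value of 59.9 and rank 9946. The 2 highest signal values at vri were thus more than 500 bp from a start.

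There were 25 pooled summits in the 27.3 kb window of vri, or 9.16 per 10 kb. As many thresholded summits as vri or more were found at 27 protein-coding genes (0.193%), vri included. All of these were among the 1367 genes with windows of 20 kb or more. By pooled summits per 10 kb, 98.9% of all protein-coding genes were lower than vri, and 99.7% of the 1367 genes with windows of 20 kb or more. The median was 1.69 per 10 kb over all genes and 2.7 over those with long windows. Of the 25 pooled summits 20 lay in introns, 3 in non-coding exons and 2 upstream.

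Pdp1 (3L, 7811458 to 7867369, minus strand) is the longest gene of the 8 and has 4 transcript starts. Its single thresholded summit lay 2871 bp upstream of the outermost start, with a signal value of 161 and pooled rank 1722. It ranked 2871, 1366 and 2069 in replicates 1, 2 and 3, so replicate 1 placed it outside its top regions. The same summit lies in an intron of CG32365, a neighbouring gene on the opposite strand whose start is closer, at 1198 bp. The region can therefore be assigned to either gene. Another thresholded summit lay further out, 8813 bp upstream of Pdp1 (signal value 139, rank 2266), beyond the 5 kb limit. Within the gene body none of the pooled summits passed the threshold.

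Below the threshold, Pdp1 carried 28 more pooled summits, 29 in all over 60.9 kb, or 4.76 per 10 kb. Of the genes with windows of 20 kb or more, 83.2% had a lower density. The next best summit lay 281 bp upstream of the outermost start, with a signal value of 123 and pooled rank 2843. Its ranks were 7436, 1829 and 2684 in replicates 1, 2 and 3. The summit 464 bp downstream of an internal start had a signal value of 113 and pooled rank 3334. It ranked 2203 in replicate 1 and 2102 in replicate 3, and replicate 2 had no matching region. At the threshold, the member summit just inside was that of vri with signal value 154 and pooled rank 1897. Those just outside were one of vri (123, rank 2826) and the promoter summit of Pdp1.

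**Figure D1:**
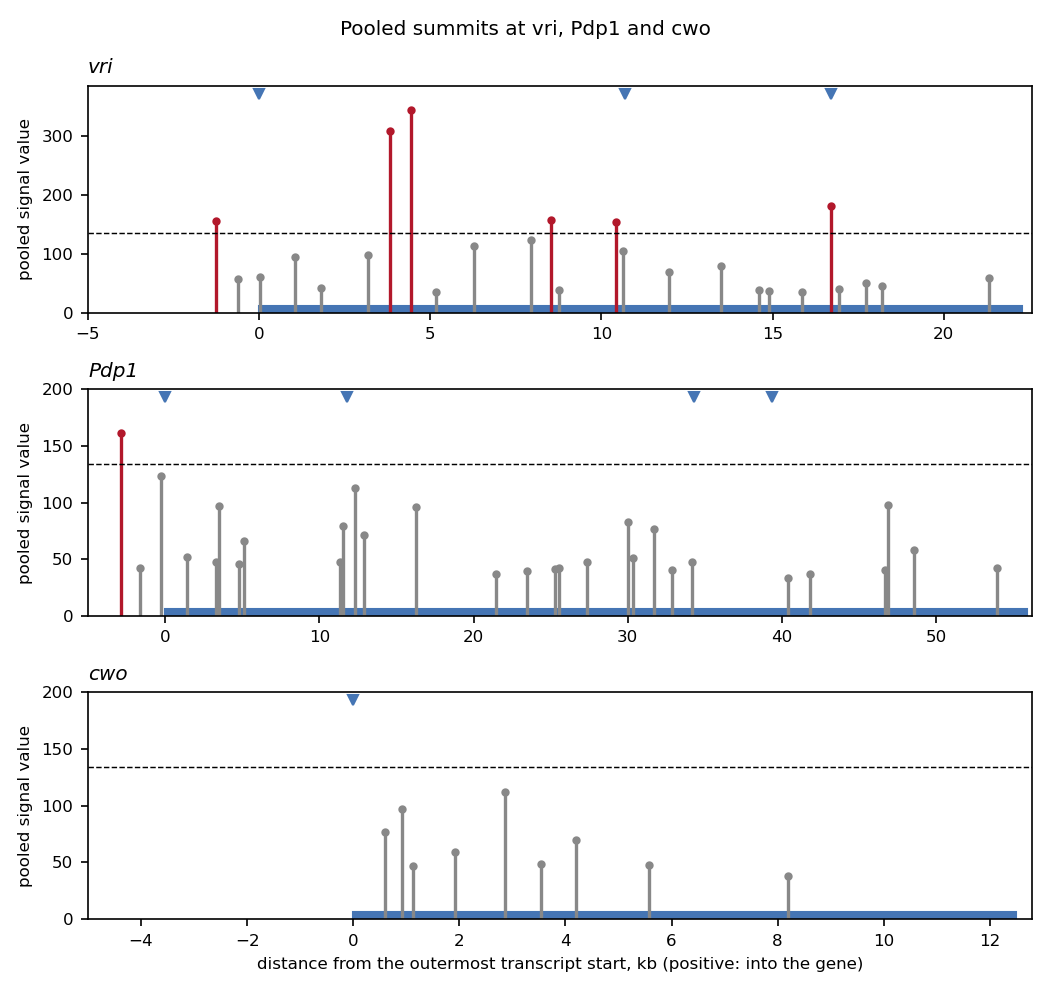
Signal values of all pooled summits (vertical axis) in the windows of vri, Pdp1 and cwo, against distance from the outermost transcript start in kb (horizontal axis). Red marks thresholded summits, grey all others, the dashed line the lowest thresholded signal value (134), the blue bar the gene and blue triangles its transcript starts. The 2 tallest summits of vri, 343 and 308, stand in an intron, and no summit of cwo exceeds 112.

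The repressor gene cwo (3R, 10388258 to 10400752, plus strand) had 9 pooled summits in its window, or 5.14 per 10 kb, and none was thresholded. A lower density was found for 88.1% of all protein-coding genes. All 9 lay downstream of its single start, 5 of them in introns, 3 in non-coding exons and 1 in a coding exon. The highest was intronic, 2855 bp from the start, with a signal value of 112 and pooled rank 3394. It ranked 3079, 6094 and 2672 in replicates 1, 2 and 3. At cwo, as at vri, pooled summits were many, but those of cwo stayed below the threshold. Of the 9, 6 were matched by a region in every replicate. The density of cwo was not ranked among genes of like window length.

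The photoreceptor gene cry (3R, 19212154 to 19215442, plus strand) had its best summit 234 bp upstream of its start. The signal value was 106 and the pooled rank 3730. Replicate 1 ranked the region 1990, whereas replicates 2 and 3 ranked it 6521 and 7830. A second pooled summit, 1026 bp upstream, had a signal value of 36.1 and was matched by no replicate region. The promoter region of cry thus stood among the top regions of 1 replicate only.

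The inhibitor genes per and tim and the activator gene Clk each had weak summits close to a start. That of per (X, 2685580 to 2692780, plus strand) lay 193 bp upstream, with a signal value of 66.7 and pooled rank 8200. Its replicate ranks were 7337, 12997 and 22396, the last near the end of the list of replicate 3. That of tim (2L, 3493986 to 3508119, minus strand) lay 86 bp downstream of an internal start, with a signal value of 62.1 and pooled rank 9335, and ranked 11683, 8347 and 12031. A further pooled summit of tim, intronic, had a signal value of 54. At Clk (3L, 7763233 to 7775603, minus strand) the only pooled summit lay 27 bp upstream of the outermost start, with a signal value of 58.4 and pooled rank 10420, and ranked 21842, 13897 and 6885. Pooled lists include background regions by design, so regions of such ranks need not be bound. Pooled summits per 10 kb were 0.82 for per, 1.05 for tim and 0.576 for Clk, below the median of all genes.

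The partner gene of Clk, cyc (3L, 19813770 to 19815938, minus strand), was the only one of the 8 with no pooled summit in its window, while 7 of 8 had one, against 69.0% of all protein-coding genes. Each replicate list nevertheless held 1 region there. Their summits lay 2009, 2108 and 1991 bp upstream of cyc in replicates 1, 2 and 3, with signal values of 20, 44.5 and 38.6 and ranks 13816, 2721 and 2937. They were 20, 79 and 38 bp from the start of Fibp, and 227, 128 and 245 bp from that of Deaf1, which are both nearer than cyc. The nearest pooled summit was 23225 bp or more from all of them. Of 2108 regions ranked 3000 or better in replicate 2 that overlapped one ranked 3000 or better in replicate 3, 2072 overlapped a pooled region and 36 (1.71%) did not. That rank limit was chosen after the regions at cyc had been seen, and the cause of the missing pooled region was not tested.

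**Figure D2:**
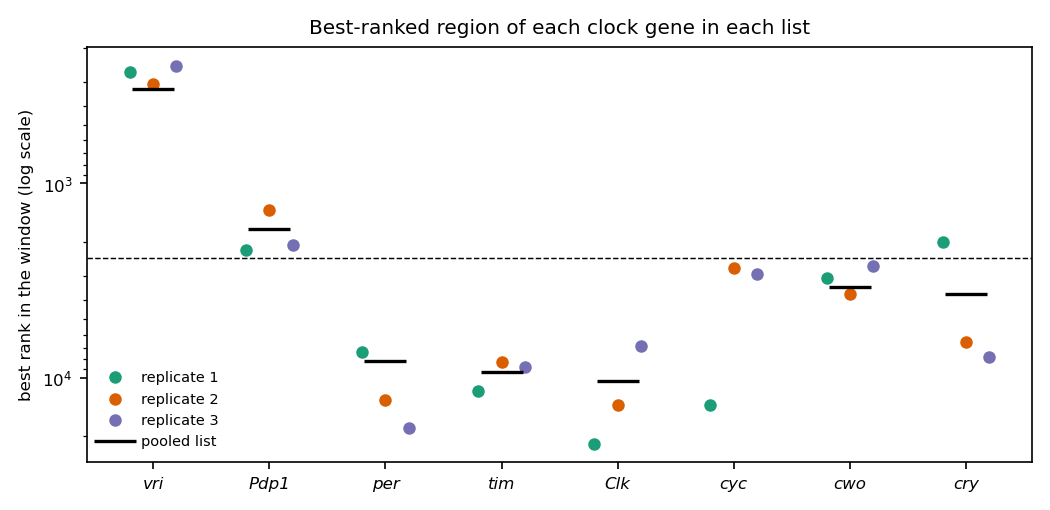
Rank of the best region in the window of each clock gene (log axis, best at the top) in replicates 1, 2 and 3 (points) and in the pooled list (bars). The dashed line is the lowest rank of a top region. The points of vri lie between 248 and 307, above those of the other clock genes, and cyc has no bar.

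The order of the 8 genes by their best region was stable at the top and not below. In the pooled list it ran vri (326), Pdp1 (1722), cwo (3394), cry (3730), per (8200), tim (9335) and Clk (10420), with cyc absent. The best rank of vri was 268, 307 and 248 in replicates 1, 2 and 3. No replicate gave any of the other 7 genes a better rank than 1366, so the replicate ranks of vri did not overlap theirs. The share of all protein-coding genes with ranks as good as those of vri was not computed. The window of vri (27.3 kb) is also longer than those of all the others but Pdp1 (60.9 kb). Pdp1 had best ranks of 2203, 1366 and 2069, and they came from different places. In replicate 1 that was the region 463 bp from an internal start, and in replicates 2 and 3 the regions 2864 and 2926 bp upstream. In replicate 1 cry (1990) stood ahead of Pdp1, and the ranks of cwo (3079, 3698 and 2672) overlapped those of cry and cyc. The ranks of per, tim and Clk overlapped each other throughout.

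The replicates taken alone gave similar counts. Of the 8 genes, 3 (vri, Pdp1 and cry) had the summit of a top region of replicate 1 in their window, against 19.2% of all protein-coding genes. In replicate 2 it was 2 (vri and Pdp1), against 19.8%, and in replicate 3 the same 2, against 19.5%. A thresholded summit within 500 bp of a transcript start was found at 1 of 8, vri, against 8.96% of all genes. Counts of 1 to 3 among 8 genes do not set the clock genes apart from these backgrounds.

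All 7 thresholded summits at clock genes were matched by a region of each replicate that held the summit or had its own summit within 200 bp. Of the 7, 4 overlapped a top region of all 3 replicates, against 59.1% of the 2395 thresholded regions on the arms. All 4 belong to vri. Without replicate 2 or replicate 3, counting only regions held by both others, Pdp1 had no thresholded summit left and the count of genes was 1. Without replicate 1 it was 2. Of all 69 pooled summits at the clock genes, 31 (44.9%) were matched in every replicate, against 29.0% of the 29980 pooled regions on the arms. By gene it was 13 of 25 for vri, 8 of 29 for Pdp1, 6 of 9 for cwo, and 1 each for per, tim, Clk and cry. Summits of 1 gene are not independent, and 54 of the 69 were from vri and Pdp1. Neighbouring pooled summits can also share 1 replicate region.

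**Figure D3:**
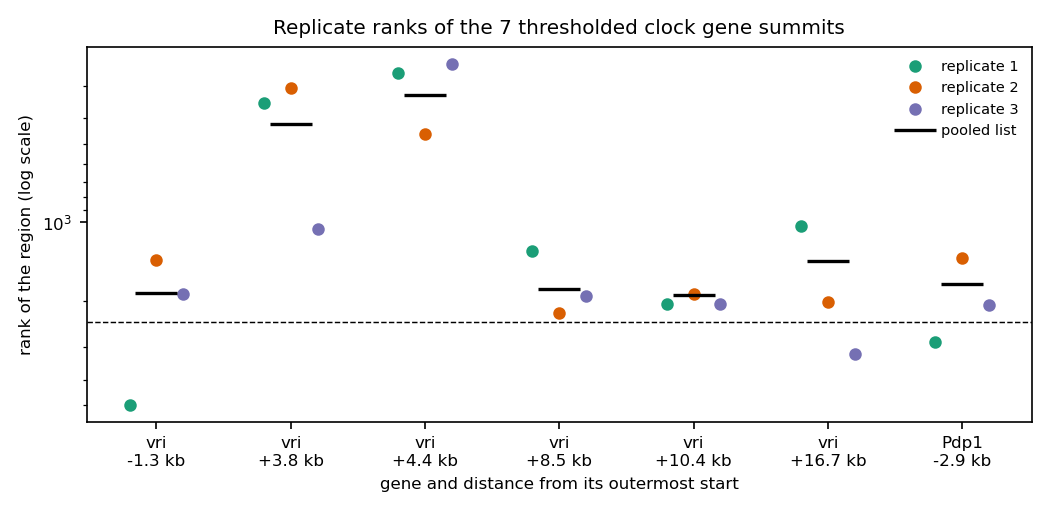
Rank of each of the 7 thresholded summits (log axis, best at the top) in replicates 1, 2 and 3 (points) and in the pooled list (bars), with the distance of the summit from the outermost start of its gene in kb. The dashed line is the lowest rank of a top region. The intronic vri pair ranks best, and 3 of the 7 have 1 replicate below the line.

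By position, 5 of the 7 thresholded summits lay in introns of vri, 2 lay upstream of a gene, and none was in an exon. Those within 500 bp of a start were 2, both at vri. Both lie at starts inside the gene and are also counted among the 5 intronic ones. No share by position over all listed regions was computed, so neither these counts nor those below show a preference. Of the 69 pooled summits at the 8 genes, 48 were in introns, 11 in non-coding exons, 1 in a coding exon and 9 upstream, and 13 were within 500 bp of a start.

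The windows around the 7 thresholded summits were searched for sequences bound by clock factors, forkhead factors and promoter factors. The canonical E-box CACGTG, the site of the Clk and cyc dimer, was in 0 of 7 windows of 100 bp to either side of a summit, against 2.3% of all 2395 thresholded summits. The general form CANNTG, which includes it, was in 5 of 7 (all: 60.5%). The sites TTATGTAA and TTACGTAA, of the type that vri and Pdp1 products recognise, were in 0 of 7 (all: 1.88% and 0.459%). Within 200 bp TTATGTAA was at 1 of 7, against 3.01% of all, and TTACGTAA at 0 of 7, against 0.71%. ATAAACA, a forkhead form, was in 1 of 7 (all: 9.23%), 39 bp past the best-ranked vri summit. GTAAACA was in 1 of 7 (all: 5.34%), 81 bp past the vri summit near the middle start. The GAGA factor core GAGAG was in 0 of 7 (all: 33.3%), and TATCGATA, a DREF site, in 0 of 7 (all: 1.84%). GAGAG was within 200 bp of 6 of the 7, against 57.2% of all. Matches were counted on both strands. A match is not a bound site, and the lack of one says only that these letters are not in the window.

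The summit windows differed in base composition. The vri window 6 bp from a start was 51.2% G and C, the Pdp1 window 24.9% and the other vri windows 30.3% to 38.3%, with a median of 36.8% over all thresholded summits. In the promoters, taken as 250 bases before to 50 after a start, the outermost start of each of the 8 genes was set beside the outermost start of all protein-coding genes. CACGTG was in 1 of 8 of these promoters, that of Pdp1 (all: 4.2%), and CANNTG in 6 of 8 (all: 77.2%). GAGAG was in 5 of 8 (all: 29.7%), those of Pdp1, per, tim, Clk and cwo. ATAAACA was in 1 of 8, that of cry (all: 13.1%), and GTAAACA in 0 of 8 (all: 9.19%). TTATGTAA, TTACGTAA and TATCGATA were each in 0 of 8 (all: 2.15%, 0.451% and 9.36%). At starts other than the outermost, for which no share over all genes was computed, CACGTG was at the most downstream start of tim, GTAAACA at the middle start of vri and TTACGTAA at 1 internal start of Pdp1. These promoters were compared by letters alone, and no count was tested.

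**Figure D4:**
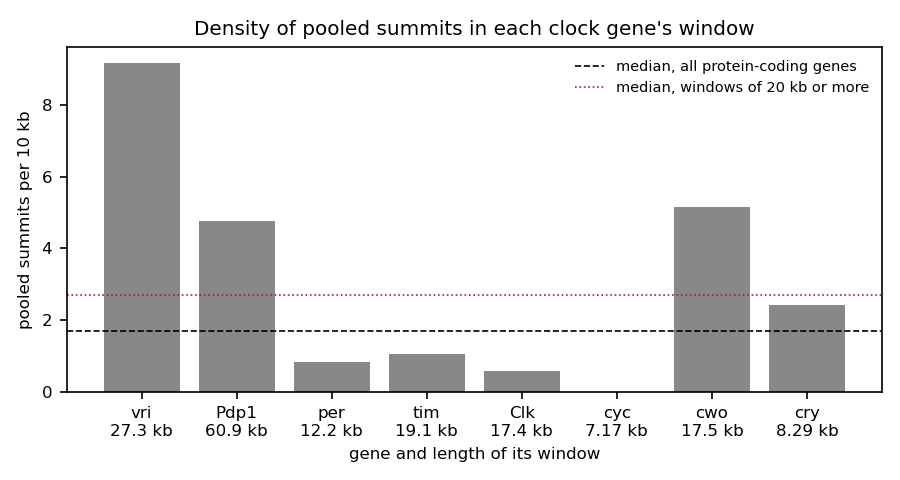
Pooled summits per 10 kb of window (vertical axis) for each of the 8 clock genes, with the length of the window in kb under each name. The dashed line is the median of all protein-coding genes (1.69) and the dotted line that of genes with windows of 20 kb or more (2.7). The bars of vri (9.16), cwo (5.14) and Pdp1 (4.76) exceed both lines, and cyc has none.

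Other genes of the clock were examined in 5 lists of 30 regulators. Of these, 11 had a thresholded summit in their window, against 19.0% of all protein-coding genes. The regulators have long windows, and the counts were nearer to the shares of genes of like length: 6 of 10 with windows of 20 kb or more (all genes: 42.6%), 5 of 13 with 10 to 20 kb (29.0%) and 0 of 7 with less than 10 kb (13.9%). Counts of this size do not set the regulators apart from other genes of their length. The list of kinases and phosphatases that act on clock proteins had 7 of 10; by window length it was 3 of 4 at 20 kb or more, 4 of 5 at 10 to 20 kb and 0 of 1 below that. Among them the per kinase gene dco (also called doubletime) had a best signal value of 226 and pooled rank 874. It ranked 675, 1283 and 1111 in replicates 1, 2 and 3. The highest of the list was sgg, whose product phosphorylates the tim protein (373, pooled rank 257, replicate ranks 321, 282 and 280). It was followed by wdb (291), a regulatory subunit gene of protein phosphatase 2A, and mts (258), the gene of its catalytic subunit. CkIIalpha, Pka-C1 and Pp1-87B had none.

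Of 7 genes for cofactors and translation 3 had a thresholded summit, 2 of the 2 with windows of 20 kb or more and 1 of the 4 with 10 to 20 kb. These were brm (333), which encodes the ATPase of a chromatin remodeller, kay (310), the Fos gene, and nej (209), a histone acetyltransferase gene. Of the 2 nuclear receptor genes active in clock neurons, Eip75B had 11 thresholded summits (highest 544, pooled rank 109) and Hr51 had none. The genes differ much in length: Eip75B runs from 17950953 to 18064696 on 3L and Hr51 from 15331325 to 15339384 on 2R. Their windows held 64 and 3 pooled summits. The share of all genes with as many thresholded summits as Eip75B was not computed. None of the 6 turnover genes had one, among them slmb, jet and Usp8. The 5 genes of neuropeptide signalling and output had none either. Among these are Pdf, which encodes the main clock neuropeptide, and its receptor gene Pdfr. When 10 kb upstream was counted in place of 5 kb, Pdf, Pdfr and the output gene to each had one. The share of all genes under that wider rule was not computed. With 5 kb upstream the shares of all genes by window length were 13.9% to 42.6%. Beside these, lists of 5 or 6 genes with no thresholded summit are not set apart from other genes.

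Members of the same protein families were also counted. Over the 3 families 6 of 10 genes with windows of 20 kb or more had a thresholded summit, against 42.6% of all genes of that length, 0 of 4 with 10 to 20 kb, against 29.0%, and 2 of 8 with less than 10 kb, against 13.9%. Of 9 bZIP genes, the family of vri and Pdp1, 2 had a thresholded summit, Atf3 (260) and kay, which is also among the cofactors above. Both were among the 3 of these genes with windows of 20 kb or more. Of 9 genes of the basic helix-loop-helix PAS family, to which Clk and cyc belong, 4 had one: tai (350), sima (326), gce (184) and trh (135). All 4 were among the 7 of these genes with windows of 20 kb or more. Of 4 genes of the Orange type, the family of cwo, 2 had one, dpn (279) and hry (211). These 4 genes all have windows under 10 kb (13.9% of all genes), and they are too few to set the family apart. The genes most like vri by best rank were E(spl)mbeta-HLH and E(spl)malpha-BFM, which share 1 region, and CG34241. Their Euclidean distances to vri in log10 rank over the pooled and 3 replicate lists were 0.093, 0.093 and 0.125. The region of the E(spl) genes ranked 282 in the pooled list and 273, 336 and 282 in replicates 1, 2 and 3. They had 2, 2 and 1 thresholded summits, and vri had 6 in its window of 27.3 kb. These counts were not set against window length.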

How the data were processed

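Chromatin was fragmented by sonication to 200 to 800 bp, per the labels. The authors made each dm6 list from aligned reads and a control file, per the file sheets; no source used here names the aligner or the peak caller. The deposited signal value of a region is a score with no stated scale, and the summit offset is the authors' own. The thresholded regions are the top of the pooled list by signal value. The dm3 lists were not used. Reference arm lengths covered all regions. Gene models came from Ensembl release 115 (BDGP 6.54) and sequence from the release 6 genome, in 1-based coordinates. Python 3.11.15, numpy 2.4.6 and pandas 2.3.3 were used. A replicate region was matched when it held the pooled summit, or else had a summit within 200 bp, so 1 region can match neighbouring summits. Regions were called held at an overlap of 1 bp or more. The window count was checked on planted summits. Symbols of 4 listed genes were replaced through RefSeq synonyms (hry, dysf, Hesr and Mid1). The genes, lists and alternatives were chosen with earlier results of these data known. Named genes were the 8 members, up to 4 per list by signal value, genes holding a member's summit, and the 3 nearest to the best member by rank. Names outside this rule were chosen after their values were seen. Depth per library is unknown, so no interval is given.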

Additional observations from a re-analysis of the deposited data

How the results depend on the processing

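The count of 2 clock genes with a thresholded summit was 1 with the gene body alone, 2 kb upstream, summits within 500 bp of a start, the better-ranked 1207 regions, or regions held by all 3 replicates, and 1 to 2 when a replicate was left out; in each case vri remained. The 7 thresholded summits became 2 within 500 bp of a start, 2 with the better-ranked 1207 regions, 4 with regions held by all 3 replicates, and 4 to 6 when a replicate was left out. The 7 genes with a pooled summit became 4 with the gene body alone. The 11 regulators became 7 with the gene body alone and 6 within 500 bp of a start. They became 15 with 10 kb upstream, where Pka-C1, Pdf, Pdfr and the output gene to were added. Shares over all genes were not computed for these alternatives. The 4 summits held by all 3 replicates became 2 when only the first 1207 ranks of each replicate counted, and 4 to 6 held by both others when a replicate was left out. The 2 summits with either forkhead form (14% of all thresholded summits) became 1 within 50 bp (8.35% of all). They stayed 2 within 200 bp (25.6% of all). No paired analysis was possible because there is 1 group.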
